A study of Homo sapiens with 38 samples.

Results

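RNY1, RNY3 and RNY4 encode Y1, Y3 and Y4, 3 of the short noncoding Y RNAs of human cells. They were matched by their Ensembl gene identifiers (ENSG00000201098, ENSG00000202354 and ENSG00000252316, without version) in a table of raw read counts, and all 3 were found among its 90127 features. The libraries are small RNA sequencing libraries of KG1a, an immature acute myeloid leukaemia line, and HL60, a promyelocytic one, both labelled wild type, and of extracellular vesicles shed by each line, separated into large (lEV) and small ones (sEV). Every source was sequenced as rPAL RNA and as the total RNA that served as its input. In rPAL, periodate turns sialic acid into an aldehyde to which biotin is then joined, so that RNA carrying sialylated glycans (sialoglycoRNA) can be pulled down. The 12 groups are thus rPAL and total RNA of KG1a cells (n = 4 each), KG1a lEV, KG1a sEV, HL60 cells, HL60 lEV and HL60 sEV (n = 3 each), 38 libraries in all. Cells were grown with 10% fetal bovine serum, whereas vesicles came from cells kept without serum before collection, so the serum in the medium cannot be told apart from the source of the RNA.

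Y RNAs are transcribed by RNA polymerase III and fold into a stem, which binds the ring-shaped protein RO60, and a loop that differs between members. Their uridine tail binds La (SSB), and Y RNAs have been linked to RNA quality control and to the start of DNA replication. Y RNAs and their fragments are known as frequent cargo of extracellular vesicles, and Y RNA is among the small RNAs described as carriers of glycans.

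The sequences of RNY4 and RNY1 are shown because their shared ends and their likeness to other loci bear on which reads can be assigned to them. All 3 genes are noncoding single-exon genes of chromosome 7 (GRCh38, GENCODE release 29), with RNY4 on the plus strand at chr7:148963315-148963410 and RNY1 on the minus strand at chr7:148987136-148987248. No other annotated gene overlaps them. Capitals mark the 11 bases at the 5′ end that both share.
RNY4: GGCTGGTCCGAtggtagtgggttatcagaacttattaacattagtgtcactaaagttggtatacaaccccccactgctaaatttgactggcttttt
RNY1: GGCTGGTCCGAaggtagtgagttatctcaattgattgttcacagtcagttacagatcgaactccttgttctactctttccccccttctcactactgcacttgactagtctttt
RNY4 measures 96 and RNY1 113 bases, and each ends in a run of at least 4 thymidines. They were identical at 63.7% of aligned positions. The shared start GGCTGGTCCGA opened 35 of 809 other annotated Y RNA transcripts (4.33%), and 97 of all 206694 annotated transcripts (0.0469%) held it anywhere, read on the transcript strand only. Every stretch of 20 bases of either gene also occurred in another annotated transcript, and so did 91.0% of the stretches of 30 bases in RNY4 and 96.4% in RNY1. A short read can therefore have several equally good origins, and the treatment of such reads is not given in the sources used here. The counts also do not tell a whole Y RNA from a fragment of it.

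Total counts per library were 2380745 to 15532758 in rPAL RNA and 5498168 to 14892937 in total RNA, and levels are given as CPM, the count divided by the library total on the usual scale. Such a level is a share of the library, so more Y RNA cannot be told apart from less of other RNA, nor more RNA per cell or vesicle from more of them. Ribosomal RNA entries held 15.0% to 63.9% of counts in vesicle rPAL libraries and 4.94% to 43.3% in vesicle total RNA libraries. The HL60 granule mRNAs MPO, ELANE, AZU1, PRTN3 and CTSG summed to 2.80 to 4.14 CPM in HL60 cell total RNA and to 0 to 0.164 CPM in KG1a cell total RNA, where 3 of the 5 were at 0. Most of the HL60 sum was MPO, at a mean of 2.49 CPM. ELANE was at 0 in HL60 cell total RNA too, and AZU1, PRTN3 and CTSG averaged 0.235, 0.115 and 0.458 CPM there. The sum of the KG1a list of CD34, PROM1 and SPN overlapped between the lines, at 3.09 to 5.17 CPM in HL60 and 3.95 to 10.6 CPM in KG1a cell total RNA. Within it CD34 did not overlap, at 0 to 0.14 CPM in HL60 and 1.175 to 4.77 CPM in KG1a, whereas PROM1 and SPN did. SPN averaged 4.07 CPM in HL60 and 3.81 CPM in KG1a cell total RNA. Markers of other cells (HBB, HBA1, ALB, CD3E, MS4A1 and COL1A1) summed to at most 0.471 CPM in cell total RNA and to 3.63 to 30.3 CPM in KG1a lEV rPAL RNA, where 3 of the 6 were at 0; their part in the KG1a lEV results was not tested. Whether replicates came from separate cultures is not stated in the labels, and p-values therefore reflect only the spread among these libraries, which may be technical. The 3 vesicle rPAL libraries numbered replicate 3 of KG1a lEV, KG1a sEV and HL60 lEV had no count for any of the Y RNA genes. Counts of 0 there allow up to 1.05, 1.24 and 0.603 CPM (3 counts of the library total), so none of the 3 genes was detectable at those depths, although other Y RNA loci had counts in these libraries. Errors of levels are SDs between libraries and errors of log2 fold changes are SEs of the fit.

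Of the Y RNA genes, RNY1 had the highest level per length in total RNA of all 6 sources. In HL60 cells RNY1 had 44.2 ± 7.48 CPM per 100 bases, RNY3 11.3 ± 0.982 and RNY4 3.36 ± 0.480 (SD, n = 3). In KG1a cells the values were 44.5 ± 12.3 for RNY1, 1.56 ± 0.323 for RNY3 and 1.44 ± 0.488 for RNY4 (SD, n = 4). The libraries of both lines overlapped for RNY1, while every HL60 library lay above every KG1a library for RNY3 and RNY4.

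**Figure D1:**
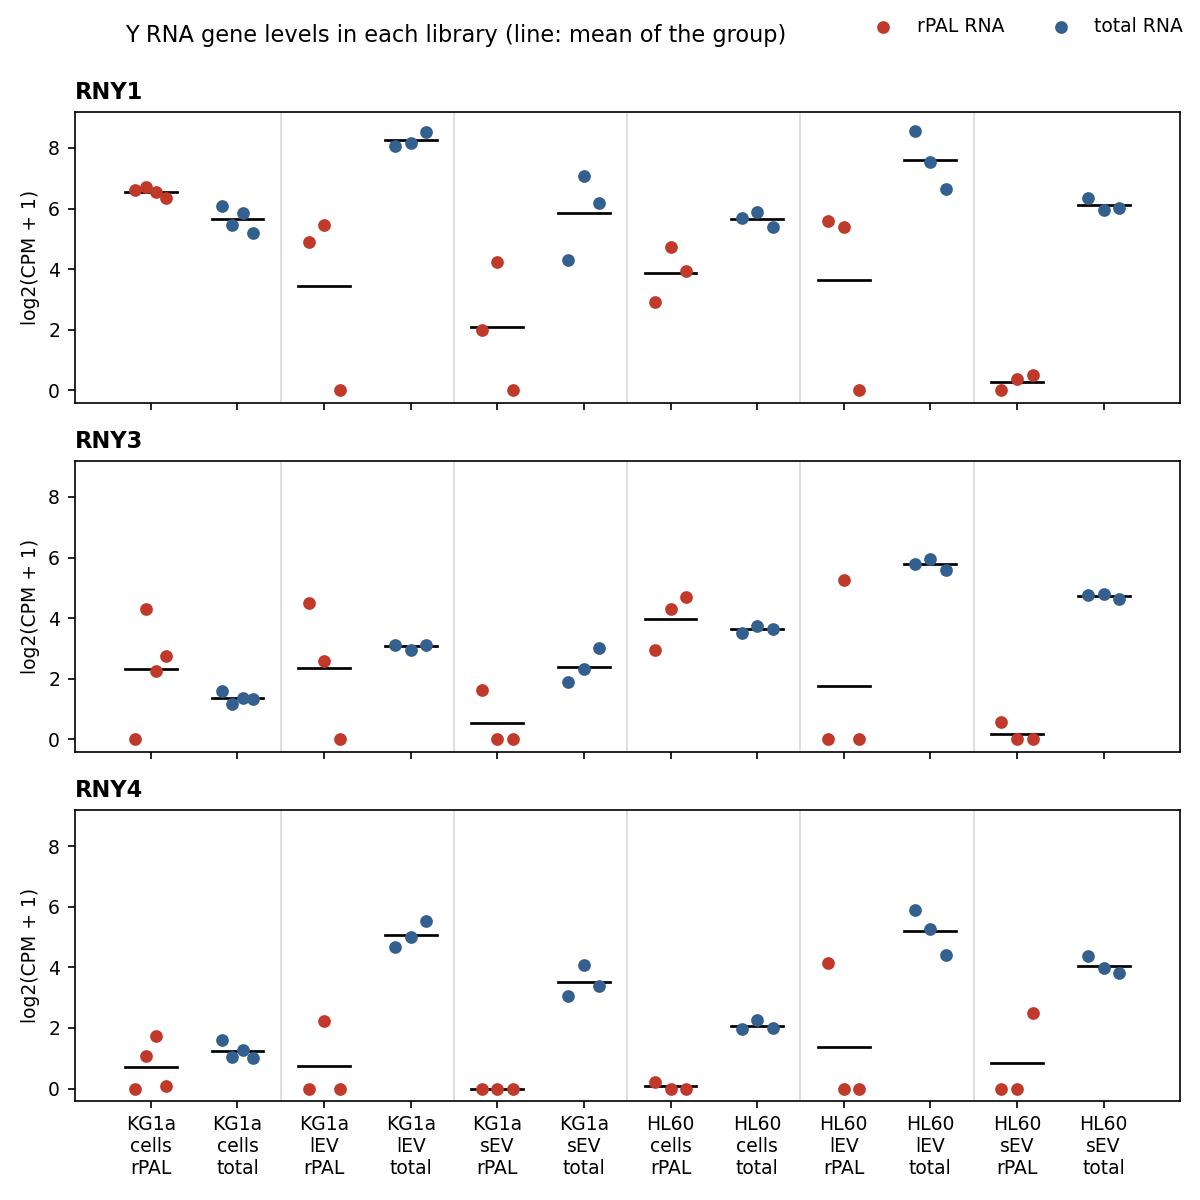
Level of RNY1, RNY3 and RNY4 as log2(CPM + 1) in each of the 38 libraries, rPAL RNA in red and total RNA in blue, with a line at the mean of each group. Total RNA libraries lie close together within most groups, whereas vesicle rPAL libraries range from 0 to 47.0 CPM for RNY1.

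The design first asks what the pull-down holds relative to its input, and in KG1a cells RNY1 was the Y RNA with most rPAL counts. It had 96.4, 103, 92.3 and 80.8 CPM in rPAL RNA, against 66.1, 42.5, 57.1 and 35.5 CPM in total RNA. The 4 rPAL libraries all lay above the 4 total RNA libraries, and the means differed 1.85-fold. RNY3 had 0, 18.5, 3.81 and 5.73 CPM in rPAL RNA, against 2.03, 1.23, 1.60 and 1.51 CPM in total RNA, so that 3 of 4 rPAL libraries were above every total RNA library and replicate 1 had no count. RNY4 had 0, 1.10, 2.35 and 0.0644 CPM in rPAL RNA, against 2.03, 1.07, 1.41 and 1.01 CPM in total RNA, and these groups overlapped.

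After TMM scaling none of the 3 genes passed in KG1a cells. edgeR's quasi-likelihood test gave log2 fold changes of 0.69 ± 0.44 for RNY1 (adjusted p = 0.36 by Benjamini-Hochberg), 1.77 ± 1.09 for RNY3 (adjusted p = 0.34) and -1.17 ± 1.13 for RNY4 (adjusted p = 0.573). Of the 6592 features tested, 18.8% were called in either direction. 0 of the 3 genes had an unadjusted p under 0.05 and 0 passed with DESeq2. Without rPAL replicate 1, edgeR called RNY3 higher (log2 fold change 2.19, adjusted p = 0.0336). Transfer RNA entries held 72.9% and 77.0% of counts in rPAL replicates 1 and 4 but 38.7% and 39.6% in rPAL replicates 2 and 3, and with these last libraries left out RNY4 was called lower (-4.95, adjusted p = 0.00856); the part of this difference in the result was not tested.

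In HL60 cells RNY1 and RNY4 fell in rPAL RNA while RNY3 did not pass the test. RNY1 had 6.58, 25.4 and 14.3 CPM in rPAL RNA, against 50.2, 58.2 and 41.3 CPM in total RNA. Its groups did not overlap, and its log2 fold change was -1.99 ± 0.51 (edgeR quasi-likelihood test, adjusted p = 0.0124). RNY4 had 0.169, 0 and 0 CPM in rPAL RNA, from a single read, against 2.93, 3.76 and 3.01 CPM in total RNA. From the summed counts, 1 in rPAL and 140 in total RNA, the total RNA level was 71.1 times the rPAL level (95% exact interval 12.6 to 2827, counting error only), and edgeR called RNY4 lower (adjusted p = 0.00176). RNY3 had 6.75, 19.0 and 24.8 CPM in rPAL RNA, against 10.5, 12.5 and 11.5 CPM in total RNA.

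The RNY3 groups in HL60 cells overlapped, with 2 rPAL libraries above and 1 below all total RNA libraries, and the log2 fold change was 0.29 ± 0.54 (edgeR quasi-likelihood test, adjusted p = 0.722). So 2 of 3 Y RNA genes were called lower, beside 38.6% of 6902 features called in either direction and 18% called lower. The calls of RNY1 and RNY4 held when each library was left out in turn, whereas the sign of RNY3 was negative without rPAL replicate 2 or 3 or total RNA replicate 1 or 3, as low as -0.31, and also with RLE in place of TMM scaling (-0.16). Transfer RNA entries held 62.0% to 74.1% of rPAL counts and 19.7% to 20.7% of total RNA counts in these cells, and their part in the result was not tested.

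In lEV, Y RNA counts of rPAL RNA came from some libraries only. RNY1 had 28.9, 43.0 and 0 CPM in rPAL RNA of KG1a lEV, against 269, 287 and 369 CPM in total RNA, and 47.0, 40.7 and 0 CPM in rPAL RNA of HL60 lEV, against 375, 185 and 100 CPM in total RNA. By CPM every rPAL library lay below every total RNA library in both lines. RNY3 had 21.8, 4.95 and 0 CPM in rPAL RNA of KG1a lEV, against 7.68, 6.77 and 7.75 CPM in total RNA, and its groups overlapped.

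In rPAL RNA of HL60 lEV, RNY3 was detected in replicate 2 alone, at 37.0 CPM, against 54.7, 60.6 and 47.3 CPM in total RNA. RNY4 was detected in 1 rPAL library of each line, at 3.66 CPM in KG1a replicate 2 and 16.7 CPM in HL60 replicate 1, against 24.5, 30.6 and 45.0 CPM in KG1a and 58.9, 37.6 and 20.1 CPM in HL60 total RNA. Without ribosomal RNA entries in the library totals, RNY1 averaged 32.3 ± 31.5 CPM in rPAL and 381 ± 51.1 CPM in total RNA of KG1a lEV, and 61.9 ± 58.3 CPM in rPAL and 234 ± 152 CPM in total RNA of HL60 lEV (SD, n = 3 each). On those totals the HL60 lEV groups overlapped for all 3 genes. RNY1 had 116 CPM in rPAL replicate 1, against 106 CPM in total RNA replicate 3. RNY3 had 63.5 CPM in rPAL replicate 2 and RNY4 41.2 CPM in rPAL replicate 1, against 50.1 and 21.3 CPM in total RNA replicate 3.

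None of the Y RNA genes passed in lEV of either line, with rPAL libraries this uneven. In KG1a lEV edgeR's quasi-likelihood test gave log2 fold changes of -3.59 ± 1.42 for RNY1 (adjusted p = 0.112), 0.45 ± 1.37 for RNY3 (adjusted p = 0.887) and -4.72 ± 1.57 for RNY4 (adjusted p = 0.065), beside 10.2% of 5857 features called. An unadjusted p under 0.05 was found for 2 genes, and DESeq2 called 2. In HL60 lEV the values were -4.38 ± 1.65 for RNY1 (adjusted p = 0.0786), -3.54 ± 2.06 for RNY3 (adjusted p = 0.245) and -4.39 ± 1.97 for RNY4 (adjusted p = 0.131), beside 31.3% of 3219 features called by edgeR. Here 1 gene had an unadjusted p under 0.05 and DESeq2 called 1.

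Single rPAL libraries decided the lEV calls. In KG1a lEV edgeR called RNY1 lower without rPAL replicate 3, which held no count of the 3 genes (log2 fold change -2.97, adjusted p = 0.0237), and RNY4 lower without rPAL replicate 2 (adjusted p = 0.0255), while RNY3 changed sign without rPAL replicate 1 (-1.58, adjusted p = 0.545). In HL60 lEV it called RNY1 lower without rPAL replicate 3 (-4.20, adjusted p = 0.0174). There it also called RNY3 lower without rPAL replicate 2 (adjusted p = 0.00815) and RNY4 lower without rPAL replicate 1 (adjusted p = 0.0198), each of which held all rPAL counts of that gene.

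In sEV rPAL RNA few reads came from the Y RNA genes, 15 in HL60 and 126 in KG1a over all libraries, of which RNY1 made up 119 in KG1a. RNY1 had 3.002, 17.8 and 0 CPM in rPAL RNA of KG1a sEV, against 18.9, 133 and 72.0 CPM in total RNA, and 0, 0.296 and 0.420 CPM in rPAL RNA of HL60 sEV, against 80.8, 61.1 and 63.6 CPM in total RNA. RNY3 had 7 rPAL counts in KG1a sEV, all in replicate 1, and 2 in HL60 sEV, also in replicate 1, against 2.68, 3.96 and 7.06 CPM in KG1a and 26.2, 27.0 and 23.8 CPM in HL60 total RNA. RNY4 had no rPAL count in KG1a sEV and 11 in HL60 sEV, all in replicate 3, against 7.29, 15.8 and 9.38 CPM in KG1a and 19.6, 14.6 and 13.2 CPM in HL60 total RNA. By CPM the rPAL libraries lay below the total RNA libraries for all 3 genes in both lines. Without ribosomal RNA entries in the totals this was lost for RNY1 and RNY3 in KG1a sEV. RNY1 then had 49.2 CPM in rPAL replicate 2, against 33.3 CPM in total RNA replicate 1. RNY3 then had 5.67 CPM in rPAL replicate 1, against 4.73 CPM in total RNA replicate 1.

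Of the Y RNA genes in KG1a sEV, RNY4 alone was called, at least 42.5-fold lower in rPAL RNA against a floor of 3 counts over the group (edgeR quasi-likelihood test, adjusted p = 0.0113). RNY1 (-3.85 ± 1.53, adjusted p = 0.129) and RNY3 (-2.70 ± 1.57, adjusted p = 0.356) missed the threshold in the same edgeR test. Among 8128 features 6.61% were called in either direction and 6.13% lower. The call of RNY4 was lost without rPAL replicate 1 (adjusted p = 0.118), rPAL replicate 2 (0.104), total RNA replicate 1 (0.0601) or total RNA replicate 2 (0.0799).

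In HL60 sEV RNY1 and RNY3 were called lower in rPAL RNA, beside 16.3% of 3619 features called lower and 18.8% in either direction. RNY1 had 2 counts in rPAL and 1616 in total RNA, so its total RNA level was 324 times the rPAL level (95% exact interval 89.5 to 2677), with an edgeR quasi-likelihood adjusted p of 0.0168. RNY3 had 2 and 617 counts, a ratio of 124 (34.1 to 1023), with an adjusted p of 0.038 in the same edgeR test. RNY4 was not called (log2 fold change -3.66 ± 1.93, adjusted p = 0.273 by edgeR). The RNY3 call was lost whenever any single library was left out (adjusted p between 0.0531 and 0.107), and the RNY1 call without rPAL replicate 2 (adjusted p = 0.0648), whereas RNY4 was called without rPAL replicate 3 (adjusted p = 0.0495). Without ribosomal RNA entries in the totals RNY1 averaged 0.506 ± 0.532 CPM in rPAL and 86.3 ± 8.25 CPM in total RNA of HL60 sEV (SD, n = 3 each).

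**Figure D2:**
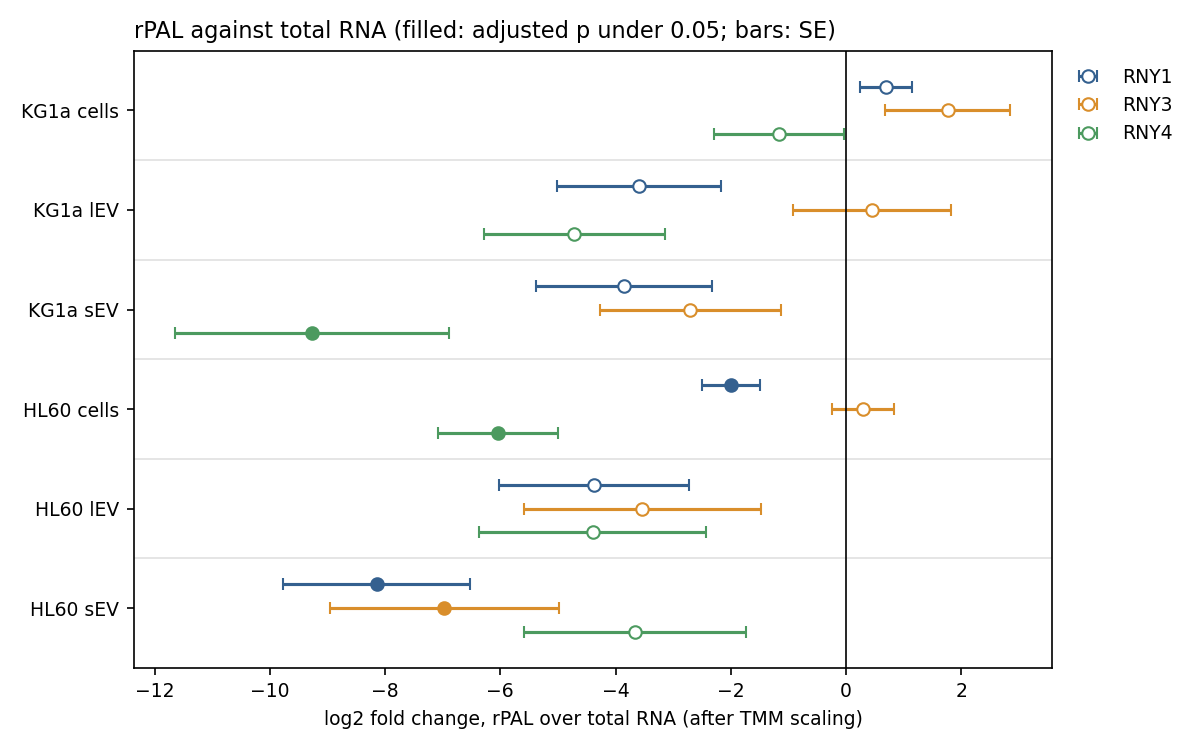
Log2 fold change of rPAL over total RNA after TMM scaling, with its SE, for the 3 Y RNA genes in each of the 6 sources. Filled points have an edgeR adjusted p under 0.05: RNY1 and RNY4 in HL60 cells, RNY1 and RNY3 in HL60 sEV and RNY4 in KG1a sEV, all to the left of 0, and a fitted value of a gene with no rPAL count (RNY4 in KG1a sEV) is no measure of the size of its fall.

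Taken over the 6 sources with equal weight, all 3 genes had a lower mean in rPAL RNA, and the same mean was not computed for other features. The mean difference in log2(CPM + 1) was -3.20 for RNY1 (two-sided permutation test within source, 100000 resamples, p = 5e-05; lower in 5 of 6 sources). It was -1.64 for RNY3 (permutation p = 0.00545; lower in 4 of 6 sources) and -2.89 for RNY4 (permutation p = 1e-05, the smallest these resamples can give; lower in 6 of 6 sources). On this scale the sources with a higher mean in rPAL RNA were cells, by 0.91 for RNY1 and 0.96 for RNY3 in KG1a and by 0.35 for RNY3 in HL60. By mean CPM RNY3 was also higher in rPAL RNA of KG1a lEV, at 8.92 ± 11.4 CPM in rPAL and 7.40 ± 0.544 CPM in total RNA (SD, n = 3 each), where the rPAL libraries include 1 with no count. Without the libraries numbered replicate 3, which include those with no count of the 3 genes, the RNY3 difference was -1.25 (permutation p = 0.0791). The largest RNY3 falls were in HL60 lEV (-4.03) and HL60 sEV (-4.54). Among all features edgeR called more lower than higher in each vesicle source, such as 590 and 91 in HL60 sEV and 498 and 39 in KG1a sEV. In HL60 cells it called 1243 lower and 1420 higher. Whether the pooled fall is particular to the Y RNA genes was not tested.

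The next question is how vesicle RNA differs from the RNA of the parent cells, and in total RNA all 3 genes rose in lEV of both lines. RNY4 had 24.5, 30.6 and 45.0 CPM in KG1a lEV, against 2.03, 1.07, 1.41 and 1.01 CPM in KG1a cells, and 58.9, 37.6 and 20.1 CPM in HL60 lEV, against 2.93, 3.76 and 3.01 CPM in HL60 cells. RNY4 stood 24.2-fold higher in KG1a lEV and 12.04-fold higher in HL60 lEV by mean CPM. RNY1 averaged 308 ± 53.1 CPM in KG1a lEV and 50.3 ± 13.8 CPM in KG1a cells, and 220 ± 141 CPM in HL60 lEV and 49.9 ± 8.46 CPM in HL60 cells (SD, n = 4 for KG1a cells and 3 elsewhere). RNY3 averaged 7.40 ± 0.544 CPM in KG1a lEV and 1.59 ± 0.330 CPM in KG1a cells, and 54.2 ± 6.67 CPM in HL60 lEV and 11.5 ± 1.00 CPM in HL60 cells. No lEV library of either line overlapped the cell libraries for any of the 3 genes.

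In KG1a lEV against cells the log2 fold changes were 2.49 ± 0.36 for RNY1 (edgeR quasi-likelihood test, adjusted p = 5.10e-05), 2.08 ± 0.33 for RNY3 (adjusted p = 9.30e-05) and 4.44 ± 0.43 for RNY4 (adjusted p = 1.92e-06). All 3 genes were called higher, beside 23.8% of 7780 features called higher and 52.3% called in either direction. In HL60 lEV against cells they were 3.13 ± 0.70 for RNY1 (edgeR adjusted p = 0.00622), 3.14 ± 0.58 for RNY3 (adjusted p = 0.00209) and 4.57 ± 0.72 for RNY4 (adjusted p = 0.00102), again all 3 called higher, beside 12.1% of 6527 features called higher and 27.3% in either direction. TMM scaling raised the median HL60 lEV fold change by 0.77 on the log2 scale, so the fitted folds exceed the ratios of CPM in that line. The RNY1 call in HL60 lEV was lost without cell replicate 1 (adjusted p = 0.0535) or cell replicate 3 (adjusted p = 0.0562).

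In sEV, RNY4 rose again while RNY1 and RNY3 did not pass. RNY4 averaged 10.8 ± 4.46 CPM in KG1a sEV and 1.38 ± 0.468 CPM in KG1a cells, a log2 fold change of 1.95 ± 0.49 (edgeR quasi-likelihood test, adjusted p = 0.00719). It averaged 15.8 ± 3.40 CPM in HL60 sEV and 3.23 ± 0.461 CPM in HL60 cells, a log2 fold change of 2.02 ± 0.48 (edgeR adjusted p = 0.0154). The RNY4 levels of sEV and cell libraries did not overlap in either line. Before TMM scaling the same held for RNY3, with means 2.87-fold higher in KG1a sEV and 2.23-fold higher in HL60 sEV. RNY1 stood 1.37-fold higher in HL60 sEV without overlap and 1.48-fold higher in KG1a sEV with overlap. RNY1 gave -0.41 ± 0.60 in KG1a (adjusted p = 0.603) and 0.18 ± 0.36 in HL60 (adjusted p = 0.75), and RNY3 gave 0.35 ± 0.42 (adjusted p = 0.516) and 0.90 ± 0.41 (adjusted p = 0.141) in the same edgeR fits. Thus 1 of 3 genes was called in each line, beside 45.1% of 8725 features in KG1a (23% called higher) and 26.7% of 7555 in HL60 (13.9% called higher).

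For sEV against cells the scaling of the libraries mattered. Without TMM scaling the median KG1a sEV fold change was 1.12 higher, RNY1 had a positive sign (0.57, edgeR adjusted p = 0.369) and RNY3 was called higher (1.51, adjusted p = 0.0155). Without KG1a sEV replicate 2, edgeR called RNY1 lower (-1.63, adjusted p = 0.03). The RNY4 call in HL60 was lost without cell replicate 1, 2 or 3 (adjusted p = 0.194, 0.105 and 0.17).

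Between the vesicle sizes, all 6 fitted fold changes of sEV over lEV were negative. RNY1 averaged 74.5 ± 56.9 CPM in KG1a sEV and 308 ± 53.1 CPM in KG1a lEV, and 68.5 ± 10.7 CPM in HL60 sEV and 220 ± 141 CPM in HL60 lEV (SD, n = 3 each). In KG1a RNY4 fell in sEV (-2.33 ± 0.54, edgeR quasi-likelihood adjusted p = 0.0414), whereas RNY1 (-2.74 ± 0.72, adjusted p = 0.0541) and RNY3 (-1.58 ± 0.43, adjusted p = 0.0621) did not pass, beside 5.31% of 7682 features called in either direction and 1.9% called lower. Same-numbered libraries deviated together here, though the labels do not state a pairing. With the replicate as a block edgeR called all 3 genes lower: RNY1 by -3.27 (adjusted p = 0.00512), RNY3 by -1.62 (0.0209) and RNY4 by -2.48 (0.00474).

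In HL60 RNY1 fell in sEV against lEV (-2.87 ± 0.73, edgeR adjusted p = 0.0333), whereas RNY3 (-2.20 ± 0.68, adjusted p = 0.0687) and RNY4 (-2.48 ± 0.77, adjusted p = 0.0706) did not pass, beside 7.21% of 5813 features called in either direction and 1.75% called lower. The call of RNY4 in KG1a was lost without any of the libraries other than sEV replicate 2 (adjusted p between 0.0562 and 0.254), and without that library edgeR called RNY1 too (-4.04, adjusted p = 0.0403). The call of RNY1 in HL60 was lost without any of the libraries other than sEV replicate 3 (adjusted p between 0.0979 and 0.171). With the replicate as a block it was lost too (edgeR adjusted p = 0.0631).

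RNY3 separated the lines. It averaged 11.5 ± 1.00 CPM in HL60 and 1.59 ± 0.330 CPM in KG1a cell total RNA, 54.2 ± 6.67 CPM in HL60 and 7.40 ± 0.544 CPM in KG1a lEV, and 25.7 ± 1.63 CPM in HL60 and 4.57 ± 2.25 CPM in KG1a sEV (SD, n = 4 for KG1a cells and 3 elsewhere). The lines did not overlap in any of these sources, and the means stood 7.22-fold, 7.32-fold and 5.62-fold apart. RNY3 was called higher in HL60 cells (log2 fold change 2.93 ± 0.32, edgeR quasi-likelihood adjusted p = 6.34e-07) and in HL60 lEV (3.99 ± 0.62, adjusted p = 0.00133). In sEV its difference of 3.32 ± 0.70 missed the threshold with edgeR (adjusted p = 0.0596), where 0 of the 3 genes were called, 1 had an unadjusted p under 0.05 and DESeq2 called RNY3 (adjusted p = 1.04e-06).

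RNY4 was higher in HL60 cells (1.31 ± 0.34, edgeR adjusted p = 0.00483) but did not pass in lEV (1.42 ± 0.64, adjusted p = 0.158) or sEV (1.22 ± 0.71, adjusted p = 0.468). RNY1 did not pass in cells (0.10 ± 0.32, adjusted p = 0.84), lEV (0.69 ± 0.65, adjusted p = 0.511) or sEV (0.54 ± 0.75, adjusted p = 0.809) in the edgeR fits, and its sign turned in all 3 sources without TMM scaling. The called genes numbered 2 of 3 in cells, beside 39.9% of 8655 features (18.4% higher), 1 of 3 in lEV, beside 16.1% of 6221 (7.04% higher), and 0 of 3 in sEV, beside 1.38% of 8581.

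**Figure D3:**
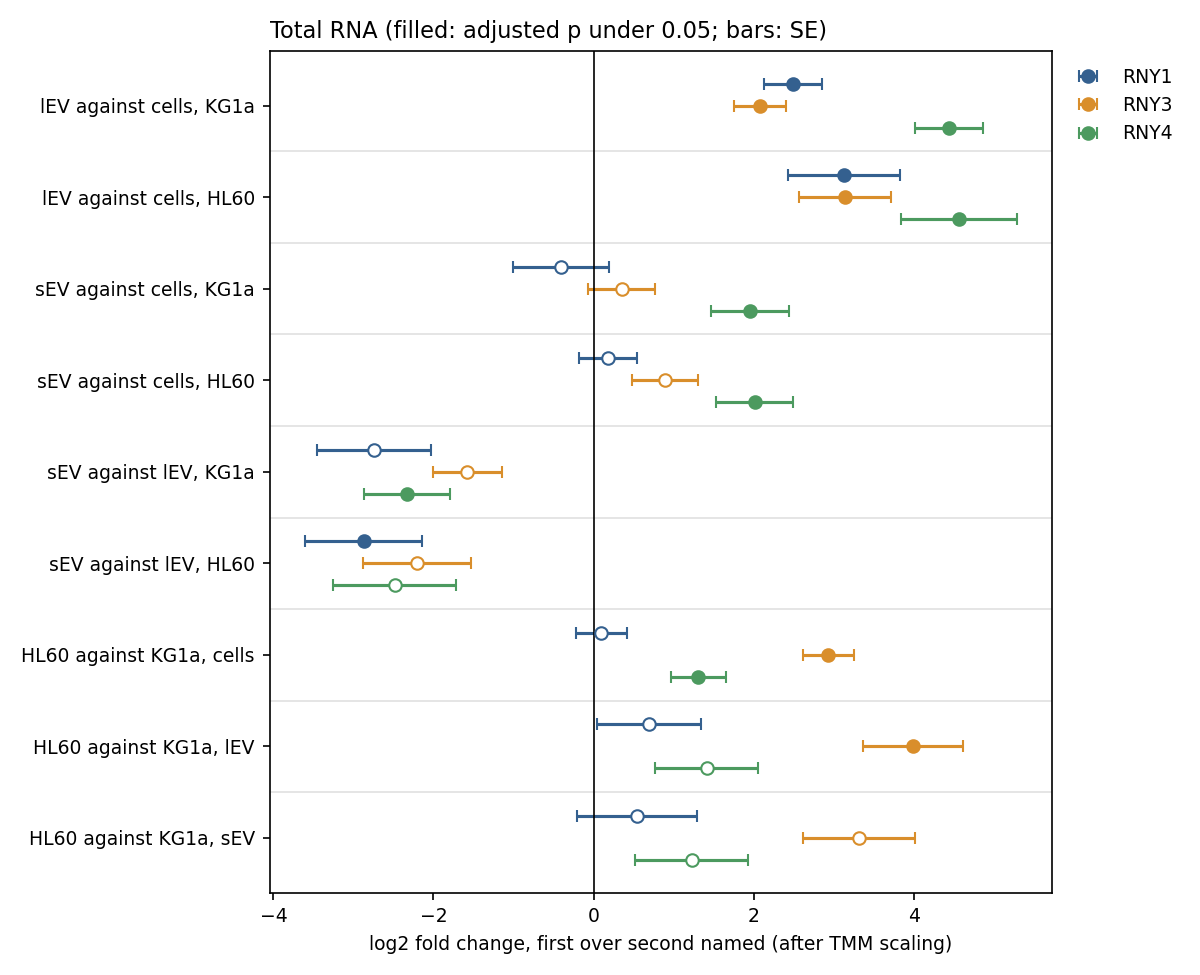
Log2 fold changes in total RNA after TMM scaling, with their SEs, for lEV and sEV against cells, sEV against lEV and HL60 against KG1a, the group named first over the other. Filled points have an edgeR adjusted p under 0.05 without a replicate block; RNY4 was called in each comparison of vesicles with cells, and RNY3 in HL60 against KG1a cells and lEV.

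Across the 6 sources of total RNA the order of levels differed between the genes. For RNY1 it ran KG1a lEV, HL60 lEV, KG1a sEV, HL60 sEV, KG1a cells and HL60 cells, and every pair of neighbours overlapped between libraries. For RNY3 it ran HL60 lEV, HL60 sEV, HL60 cells, KG1a lEV, KG1a sEV and KG1a cells, and KG1a lEV and KG1a sEV were the only neighbours that overlapped. For RNY4 it ran HL60 lEV, KG1a lEV, HL60 sEV, KG1a sEV, HL60 cells and KG1a cells, with an overlap within each pair of like vesicles and none elsewhere. RNY3 was thus ordered by line first, and RNY4 by source first.

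In rPAL RNA the order ran differently, and it is given without a test. RNY1 averaged 93.2 ± 9.39 CPM in KG1a cells, 29.2 ± 25.5 in HL60 lEV, 23.95 ± 21.9 in KG1a lEV, 15.4 ± 9.45 in HL60 cells, 6.92 ± 9.51 in KG1a sEV and 0.239 ± 0.216 in HL60 sEV. KG1a cells alone stood apart from the next group. RNY3 averaged 16.8 ± 9.23 CPM in HL60 cells, 12.3 ± 21.4 in HL60 lEV, 8.92 ± 11.4 in KG1a lEV and 7.02 ± 8.04 in KG1a cells, with all neighbours overlapping.

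Whether the gap between rPAL and total RNA itself differed between lines or sources was tested as an interaction. The gap is the log2 fold change of rPAL over total RNA with its sign, so a lower gap means less rPAL relative to total RNA. The gap of RNY1 in cells was lower in HL60 than in KG1a, with a difference of -2.83 ± 0.72 on the log2 scale (edgeR quasi-likelihood test of the difference, adjusted p = 0.0453), the 1 called of 3 genes beside 1.81% of 11632 features called in either direction and 1.18% called lower. That call was lost on leaving out any single HL60 cell library or any single KG1a cell total RNA library (adjusted p between 0.053 and 0.174). In HL60 the gap was lower in sEV than in cells, with differences of -6.61 ± 1.31 for RNY1 (edgeR adjusted p = 0.0065) and -7.77 ± 1.58 for RNY3 (adjusted p = 0.00734), 2 of 3 genes beside 13.2% of 8107 features called in either direction and 12.8% called lower. Both calls were lost without HL60 cell total RNA replicate 1 (adjusted p = 0.0544 for RNY1 and 0.0652 for RNY3) or replicate 3 (0.0545 and 0.0587), and that of RNY3 without replicate 2 (0.0588).

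No other difference in the gap passed with edgeR's quasi-likelihood test. For HL60 against KG1a lEV 0 of 3 genes and 0% of 7871 features were called (1670 features had an unadjusted p under 0.05, and DESeq2 called 376 features and 0 of the genes). For HL60 against KG1a sEV it was 0 of 3 genes beside 0.423% of 9700 features, with 1 gene at an unadjusted p under 0.05 and 0 called by DESeq2. For KG1a lEV against cells it was 0 of 3 genes and 0% of 10442 features (1499 features with an unadjusted p under 0.05, 364 called by DESeq2), with 1 gene at an unadjusted p under 0.05 and 0 called by DESeq2. For KG1a sEV against cells it was 0 of 3 genes beside 0.0584% of 13700 features, with 3 genes at an unadjusted p under 0.05 and 0 called by DESeq2. For HL60 lEV against cells it was 0 of 3 genes beside 12.7% of 8458 features, with 0 genes at an unadjusted p under 0.05 and 0 called by DESeq2. Single rPAL libraries again mattered in lEV against cells: RNY4 was called in KG1a without lEV rPAL replicate 2 (adjusted p = 0.0465) and RNY3 in HL60 without lEV rPAL replicate 2 (adjusted p = 4.58e-04).

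The make-up of the Y RNA counts needs no scaling between libraries, since each gene is set against the sum of the 3. RNY4 made up 9.40% ± 1.28 of that sum in KG1a lEV, 15.4% ± 8.54 in KG1a sEV and 2.57% ± 0.253 in KG1a cells, and 12.5% ± 0.719 in HL60 lEV, 14.3% ± 1.22 in HL60 sEV and 5.01% ± 0.394 in HL60 cells, all in total RNA (SD, n = 4 for KG1a cells and 3 elsewhere). Every vesicle library had a larger RNY4 share than every cell library of its line. Averaged over the lines, the RNY4 share was 7.14 percentage points higher in lEV than in cells and 11.1 points higher in sEV than in cells (exact two-sided permutation test within line, p = 0.00143 each, over 700 orders).

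The RNY1 share was lower in vesicles than in cells, with differences of -7.84 points in lEV (exact permutation p = 0.00857) and -15.6 points in sEV (exact permutation p = 0.00143). The RNY3 share was 4.57 points higher in sEV than in cells (exact permutation p = 0.0129) but 0.70 points apart in lEV (exact permutation p = 0.813). The RNY1 difference in lEV missed the threshold without the libraries numbered 2 (exact permutation p = 0.0833), and the RNY3 difference in sEV without those numbered 1 (p = 0.1) or 3 (p = 0.0667), each by the same exact permutation test. These were among 9 share tests added after the data had been seen, and the raw p-values are given.

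In rPAL RNA of cells the make-up differed from that of total RNA, with more RNY3 in HL60. RNY3 made up 52.1% ± 10.5 of the 3 genes in rPAL and 17.97% ± 2.33 in total RNA of HL60 cells (SD, n = 3 each), with 42.8% to 63.5% in rPAL and 16.5% to 20.7% in total RNA libraries. In KG1a cells its share was 6.40% ± 6.40 in rPAL and 3.07% ± 0.609 in total RNA (SD, n = 4 each), and these groups overlapped. Averaged over the lines, rPAL and total RNA differed in the RNY3 share by 18.7 points (exact permutation p = 0.0214, over 1400 orders). The difference was -3.16 points for RNY4 (exact permutation p = 0.00286) and -15.6 points for RNY1 (exact permutation p = 0.0314). RNY1 made up 47.5% in rPAL and 77.0% in total RNA of HL60 cells, without overlap. In KG1a cells it made up 92.8% and 94.4%, and the groups overlapped. The RNY4 shares also overlapped in KG1a cells, at 0% to 2.38% in rPAL and 2.35% to 2.89% in total RNA. Both the RNY3 and the RNY1 difference missed the threshold without the libraries numbered 2 (exact permutation p = 0.167 for RNY3 and 0.2 for RNY1) or 3 (p = 0.1 and 0.117).

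**Figure D4:**
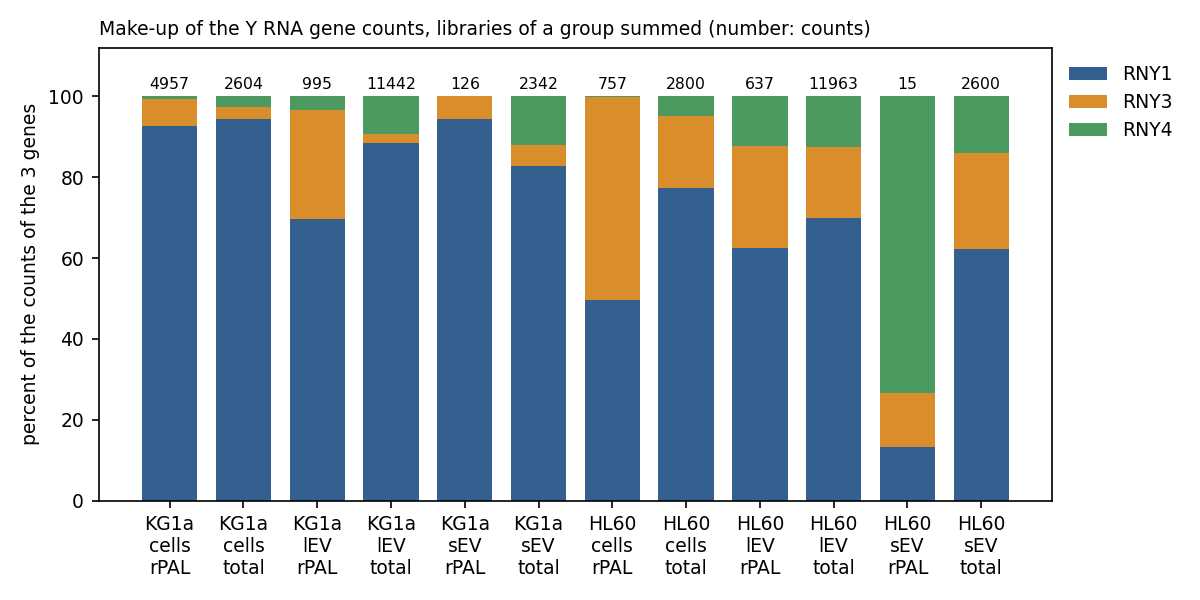
Share of RNY1, RNY3 and RNY4 in the counts of the 3 genes, with the libraries of a group summed and the summed count above each bar. RNY4 takes a larger share of total RNA in vesicles than in cells, and RNY3 about as large a share as RNY1 in HL60 cell rPAL RNA; the HL60 sEV rPAL bar rests on 15 counts.

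The other Y RNA loci of the genome, most of them pseudogenes, held part of the family's reads. The table has 814 features named as Y RNA in GENCODE (symbol starting with RNY, or the family name RF00019), of which 437 had a count. Only 57355 of the 90127 features have a GENCODE symbol, and the others were not searched and may hold further Y RNA reads. Y RNA counts below are those of the 814 named features alone. In total RNA RNY1, RNY3 and RNY4 together held 71.4% ± 4.30 of Y RNA counts in KG1a lEV, 56.3% ± 6.22 in KG1a sEV and 82.3% ± 1.66 in KG1a cells (SD, n = 3, 3 and 4). In HL60 the share was 37.1% ± 11.2 in lEV, 28.99% ± 3.73 in sEV and 56.1% ± 1.47 in cells (SD, n = 3 each). Every vesicle library gave the 3 genes a smaller share than every cell library of the same line. In rPAL RNA of cells the 3 genes held 88.9% ± 4.09 in KG1a (SD, n = 4) and 82.6% ± 6.63 in HL60 (SD, n = 3). In vesicle rPAL RNA they held 45.2% ± 39.5 in KG1a lEV, 30.6% ± 34.5 in KG1a sEV, 39.6% ± 38.8 in HL60 lEV and 3.40% ± 1.46 in HL60 sEV (SD, n = 3 each), with 0% in at least 1 library of each but the last. Most counts of the named Y RNA features in HL60 sEV rPAL RNA thus lay at loci other than the 3 genes.

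The most abundant of the other loci was RNY4P6 (chr11:117015897-117015992, plus strand, GRCh38), a pseudogene identical to RNY4 at 95.8% of aligned positions. It averaged 99.0 ± 69.8 CPM in HL60 lEV, 90.7 ± 52.9 CPM in HL60 sEV and 3.05 ± 0.345 CPM in HL60 cell total RNA (SD, n = 3 each). RNY4P20 (chr6:151298841-151298933, minus strand), identical to RNY4 at 89.6% of positions, averaged 77.2 ± 51.6 CPM in HL60 lEV and 4.09 ± 1.72 CPM in HL60 cells, and 29.1 ± 12.1 CPM in KG1a lEV and 1.20 ± 0.765 CPM in KG1a cells. In HL60 lEV both pseudogenes, nearly as long as RNY4, thus had a higher mean than RNY4 itself at 38.9 ± 19.4 CPM, within overlapping spreads. An unnamed Y RNA locus on chromosome 12 (chr12:95617689-95617786, plus strand), identical to RNY1 at 77.0% of positions, averaged 74.6 ± 80.3 CPM in HL60 lEV and 6.20 ± 1.26 CPM in HL60 cells. How reads were divided between RNY4 and such copies was not tested.

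Of the 811 other Y RNA loci few passed the filter on low counts. A locus seen in one group alone could pass only through that group, so the counts below describe the loci that passed and support nothing further. In lEV against cells 14 of 15 were called higher in KG1a, beside 23.8% of all features tested, and 40 of 41 in HL60, beside 12.1%. In sEV against cells 4 of 5 were called higher in KG1a (beside 23%) and 11 of 20 in HL60 (beside 13.9%). For rPAL against total RNA 2 of 3 were called lower in KG1a sEV (beside 6.13%), 5 of 7 in HL60 cells (beside 18%) and 7 of 8 in HL60 sEV (beside 16.3%). In KG1a lEV 2 of 15 and in HL60 lEV 26 of 33 were called, all lower, beside 10.2% and 31.3% of features in either direction, and the 1 tested in KG1a cells was not called. In sEV against lEV 5 of 14 were called lower in KG1a (beside 1.9%) and 11 of 46 in HL60 (beside 1.75%). In HL60 against KG1a 7 of 9 were called higher in cells (beside 18.4%), 30 of 42 in lEV (beside 7.04%) and 0 of 15 in sEV (beside 1.38% in either direction).

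Genes of other short RNAs made by RNA polymerase III were looked up by GENCODE symbol. Of a list of 12 only VTRNA1-3, RN7SL1 and RNU6ATAC ever passed the filter on low counts and were tested. Entries without a GENCODE symbol were not searched and may hold further reads of these RNAs, so the levels below are those of single entries. VTRNA1-3, a vault RNA, rose in rPAL RNA of cells, where no Y RNA gene was called higher. It averaged 16.2 ± 5.82 CPM in rPAL and 1.76 ± 0.845 CPM in total RNA of HL60 cells (log2 fold change 2.92, edgeR quasi-likelihood adjusted p = 0.00215), and 5.08 ± 1.40 CPM in rPAL and 0.845 ± 0.576 CPM in total RNA of KG1a cells (2.44, adjusted p = 0.0288). The entry of RN7SL1, a gene of the signal recognition particle RNA, fell in rPAL RNA of HL60 cells, to 0.125 ± 0.110 CPM, against 1.96 ± 0.113 CPM in total RNA (-4.07, edgeR adjusted p = 0.00583). In vesicles VTRNA1-3 had no rPAL count in KG1a sEV, against 6.53 ± 4.29 CPM in total RNA, and was called lower there (edgeR adjusted p = 0.0195). Its gap between rPAL and total RNA was also lower in KG1a sEV than in KG1a cells (edgeR test of the difference, adjusted p = 0.0494), and no call was made for it in KG1a lEV (adjusted p = 0.865), HL60 lEV (adjusted p = 0.47) or HL60 sEV (adjusted p = 0.372).

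In total RNA VTRNA1-3 rose in both kinds of vesicle. Its log2 fold change was 1.297 in KG1a lEV (edgeR adjusted p = 0.0242), 1.29 in HL60 lEV (adjusted p = 0.0325), 1.88 in KG1a sEV (adjusted p = 0.0243) and 3.70 in HL60 sEV (adjusted p = 0.00353), each against cells. RNU6ATAC, a small nuclear RNA of the minor spliceosome, fell in KG1a lEV, to 0.167 ± 0.214 CPM, against 6.52 ± 1.42 CPM in KG1a cells (-5.43, edgeR adjusted p = 5.18e-06). In KG1a sEV against cells RNU6ATAC fell too (-3.71, edgeR adjusted p = 0.0013), to 1.04 ± 0.819 CPM in sEV, as did RN7SL1 (-1.14, adjusted p = 0.0329), which averaged 3.23 ± 1.09 CPM in sEV and 3.28 ± 0.685 CPM in cells before TMM scaling. Between HL60 and KG1a cells VTRNA1-3 was higher (1.18, edgeR adjusted p = 0.0322) and RNU6ATAC lower (-3.35, adjusted p = 1.22e-06) in HL60.

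Messenger RNAs of proteins that bind Y RNA were a further list, of which the 4 with the highest mean level are named: NCL (nucleolin), YBX1 (a cold-shock domain protein), PTBP1 and HNRNPK (RNA-binding proteins of nuclear ribonucleoprotein complexes). In these size-selected small RNA libraries the counts at mRNA genes do not tell a whole mRNA from a fragment of it. Of the 11 mRNAs listed, 4 of 9 tested were called higher in KG1a lEV against cells, beside 23.8% of all features. They include YBX1 (log2 fold change 2.45, edgeR adjusted p = 3.34e-05), HNRNPK (1.00, adjusted p = 0.0113) and PTBP1 (0.82, adjusted p = 0.0363), whereas NCL was not called (0.57, adjusted p = 0.16). In HL60 lEV against cells 1 of 7 was called higher, PTBP1 (1.22, edgeR adjusted p = 0.0487), beside 12.1% of features. In sEV against cells 1 of 8 was called higher in KG1a, beside 23%, and 0 of 8 in HL60, beside 26.7% in either direction. For rPAL against total RNA 0 of 7 were called in KG1a cells, 0 of 9 in KG1a lEV and 0 of 8 in KG1a sEV, beside 18.8%, 10.2% and 6.61% of features. In HL60 1 was called lower in cells (of 7, beside 18% of features called lower), 1 in lEV (of 5, beside 31.3% in either direction) and 1 in sEV (of 6, beside 16.3% called lower), HNRNPK in both kinds of vesicle.

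The features whose levels ran most like those of the Y RNA genes were found by Pearson's r of log2(mean CPM + 1) over the 12 groups, among 606 features with a mean of at least 10 CPM, as a description. The closest to RNY1 were AL049796.1 (r = 0.881), SNHG5 (0.803) and MYOCOS (0.793). Unlike RNY1, these had a lower mean in HL60 lEV than in HL60 cell total RNA. AL049796.1 averaged 377 CPM in lEV and 428 CPM in cells, SNHG5 298.5 and 330.6 CPM, and MYOCOS 7.96 and 9.60 CPM. In KG1a each was higher in lEV, as RNY1 was. The closest to RNY3 were AC007881.2 (r = 0.71), AL049796.1 (0.70) and SNORD38A (0.651), and the closest to RNY4 were ACTB (r = 0.77), SCARNA6 (0.73) and SNHG3 (0.682). SNORD38A and SCARNA6 too had lower means in HL60 lEV than in HL60 cell total RNA, whereas AC007881.2, ACTB and SNHG3 had higher ones. Among themselves RNY1 and RNY4 had an r of 0.682, RNY1 and RNY3 of 0.648 and RNY3 and RNY4 of 0.541, over groups that share libraries and depth.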

How the data were processed

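Small RNA libraries of 38 samples (MGIEasy kit, gel size selection) were analysed. Reads were aligned with Bowtie2 to GRCh38, per the submitters' processing notes. The authors deposited unnormalized read counts for each feature; the counter, its settings and the treatment of multimapping reads are not given in the sources used here. All columns were mapped to a labelled sample, leaving 0 columns unused.

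CPM was computed from each column's total. Each comparison was fitted on its own groups with edgeR 4.0.16 (R 4.3.3; filterByExpr, TMM, robust quasi-likelihood test), and p-values were Benjamini-Hochberg adjusted over all features tested, with a threshold of 0.05. Gaps between rPAL and total RNA were compared as interactions. Differences over the 6 sources used log2(CPM + 1) and 100000 permutations within source, and shares exact permutations within line, both two-sided. Intervals are exact at 95% and, like the floor of 3 counts, cover counting error only.

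DESeq2 1.42.0, RLE or no scaling, no filter, a replicate block and leave-outs were alternatives. In 1 comparison, total RNA of sEV and lEV from KG1a, every pair of same-numbered libraries deviated together with a correlation over 0.1 (lowest correlation 0.188). The labels do not state a pairing. Genes named are the 3 Y RNA genes, the 3 most abundant other Y RNA loci, up to 4 of each list by mean level and the 3 closest features per gene. Members and lists were chosen with earlier results of these data known; the family name RF00019 and the share tests were added after values had been seen. Positions and sequences are from GENCODE release 29 (GRCh38), compared with Biopython 1.88. RNY5 was not analysed here. The sequence of RNY3 is not reported here.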

Additional observations from a re-analysis of the deposited data

Results flagged for a closer look

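Differences between groups in the gap between rPAL and total RNA, each by its own test of the difference with edgeR's quasi-likelihood test, were found for 3 results. The gap is again the signed log2 fold change of rPAL over total RNA. The gap of RNY1 in cells differed between HL60 and KG1a by -2.83 on the log2 scale (adjusted p = 0.0453). That call was lost with RLE scaling (adjusted p = 0.0515), without scaling (0.0838), without a filter (0.211), with the replicate block (0.0901) and on leaving out any single HL60 cell library or KG1a cell total RNA library (0.053 to 0.174). In HL60 the gap differed between sEV and cells by -6.61 for RNY1 (adjusted p = 0.0065) and by -7.77 for RNY3 (adjusted p = 0.00734). The HL60 sEV rPAL libraries behind the last values held 2 counts of RNY1 and 2 of RNY3, so the size of these fitted differences is loosely set. Both were lost with RLE scaling (adjusted p = 0.0584 for RNY1 and 0.0558 for RNY3) and without HL60 cell total RNA replicate 1 or 3, and that of RNY3 also without replicate 2. KG1a cells were the only source with 4 libraries of each RNA. There no library was flagged by its gap to the nearest one, relative to the range of the group. That rule passes over a wide spread, and RNY3 rPAL libraries of KG1a cells ran from 0 to 18.5 CPM. Groups of 3 were not examined.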

How the results depend on the processing

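Counts of Y RNA genes called (of 3) moved as follows, and the cause was not tested. With RLE scaling 1 was called for rPAL in KG1a lEV, 0 for the HL60 against KG1a gap in cells and 0 for the HL60 gap of sEV against cells. Without scaling 2 were called in KG1a sEV against cells, 2 in KG1a sEV against lEV, 0 in HL60 sEV against lEV and 0 for the gap between the lines in cells. Without a filter on low counts 0 were called for rPAL in KG1a sEV, 1 in HL60 lEV and 1 in HL60 sEV, 3 in KG1a sEV against lEV, 0 in HL60 sEV against cells, 1 in HL60 against KG1a sEV and 0 for the gap between the lines in cells. DESeq2 called 2 for rPAL in KG1a lEV, 2 in KG1a sEV and 1 in HL60 lEV, 3 in sEV against lEV of each line and 1 in HL60 against KG1a sEV. With KG1a cell rPAL replicates 2 and 3 left out together, 1 was called for rPAL in KG1a cells.

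With the replicate number as a block 1 was called for rPAL in KG1a lEV, 0 in KG1a sEV, 3 in HL60 lEV and 1 in HL60 sEV, 3 in KG1a sEV against lEV, 0 in HL60 sEV against lEV and 0 for the gap between the lines in cells; elsewhere the block moved no count by over 1.5 times. Only in KG1a sEV against lEV did every pair correlate over 0.1. In some other comparisons part of the pairs did too. They had 0.145 and 0.211 beside 0.0932 in HL60 sEV against lEV. In HL60 against KG1a sEV they had 0.318 and 0.367 beside 0.0939. The labels do not state a pairing. Under the block RNY3 turned to -0.98 for rPAL in KG1a lEV, and RNY1 to -0.022 in HL60 against KG1a cells and 0.26 for the gap between the lines in lEV.

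Leaving out one library at a time, the count ranged from 0 to 1 for rPAL in KG1a cells, KG1a lEV, KG1a sEV and HL60 lEV, for HL60 sEV against cells, for HL60 sEV against lEV, for the gap between the lines in cells and for the gap of lEV against cells in both lines. It ranged from 0 to 2 for rPAL in HL60 sEV, for KG1a sEV against lEV and for the HL60 gap of sEV against cells, and from 1 to 2 for KG1a sEV against cells. The same leave-outs turned the sign of RNY3 for rPAL in KG1a lEV (-1.58 to 1.05) and HL60 cells (-0.31 to 0.17), of RNY1 in HL60 sEV against cells (-0.35 to 0.26) and HL60 against KG1a cells (-0.16 to 0.30), and of RNY4 for the gap between the lines in lEV (-7.74 to 6.82) and sEV (-1.13 to 5.86) and the HL60 gap of lEV (-5.99 to 3.78) and sEV (-3.69 to 4.04) against cells. With all libraries of one replicate number left out, the pooled RNY3 difference ranged from -2.02 to -1.25 and the RNY3 share in lEV against cells from -0.61 to 2.47 points.

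Other signs turned. RNY3 for rPAL in HL60 cells was -0.16 with RLE scaling, -0.16 with DESeq2 and -0.047 without a filter. RNY1 for the gap between the lines in lEV was 0.094 with RLE scaling, 0.10 with DESeq2 and 0.77 without scaling. Without scaling RNY1 was 0.57 in KG1a sEV against cells, and -0.011 in cells, -0.49 in lEV and -0.12 in sEV of HL60 against KG1a. Without a filter it was -0.22 in HL60 sEV against cells and -0.0008 in HL60 against KG1a cells. Leaving TMM scaling out moved the median of all features by up to 1.44 on the log2 scale (rPAL in HL60 lEV). Of the fold changes of single genes 285 kept their direction and side of the threshold under such settings, 23 gained and 13 lost a call and 15 turned. Vesicle rPAL libraries with few or no Y RNA counts limit what could be detected there.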
